A study of Mus musculus with 9 samples.

Results

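The enzymes of glycolysis, the pentose phosphate pathway and the tricarboxylic acid (TCA) cycle were read in sorted mouse brain microglia and spleen monocytes. The list held 37 gene symbols, and each gene was represented by the probe set that carries its symbol alone and had the highest mean over the 9 arrays. Of the 37, 33 were measured in this way, among 19937 genes in all. Gapdh was left out because every probe set of it carries several symbols, and Gpi1, Eno1 and G6pdx were not analysed here. The measured genes were 17 of glycolysis, 3 of the pentose phosphate pathway and 13 of pyruvate entry and the TCA cycle.

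The series compared 3 sorted groups of wild type C57BL/6 mice with 3 gene expression arrays each. Leukocytes of perfused and digested brain were stained for Ly6C, MHC class II, CD45, F4/80 and CD11b and sorted into Ly6C-high microglia, which the labels call MgSCs, and Ly6C-low microglia, which they call bulk microglia. The third group was spleen monocytes, for which the labels give no Ly6C status. No treatment or added allele is given for any group, and the age, the sex and whether replicates were separate animals are not stated. The p-values set differences between groups against the spread of these samples within groups. That spread may be technical, so the p-values may not extend to other animals.

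Glycolysis splits glucose into pyruvate in the cytosol: hexokinases trap the sugar, phosphofructokinase commits it, and pyruvate is then either reduced to lactate or passed into mitochondria. The pentose phosphate pathway branches off after hexokinase and supplies NADPH, which phagocytes need for their oxidative burst and for lipid synthesis, and ribose for nucleotides. Pyruvate dehydrogenase feeds acetyl-CoA into the TCA cycle, whose dehydrogenases load the electron carriers of respiration. Microglia are known to use both glycolysis and respiration and to lean on glycolysis when activated.

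Values are log2 intensities from the deposited table, given by array or as mean ± SD (n = 3 arrays in each group), and differences carry the standard error (SE) of limma's fit. A gene was called higher or lower where its adjusted p over all 19937 genes was under 0.05. Probes differ in brightness, so the level of 1 gene cannot be ranked against that of another. Differences are compressed near background, so the change of a gene that read under the median of all gene means (6.13) in a group, such as Eno2 or Pdk1, may be understated. The number of arrays limits the precision, and the 3 comparisons share arrays, so they are not independent of each other.

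The groups also differed in genes of other cell types. The mean of 19 brain endothelium genes ran from 10.1 to 10.56 in the Ly6C-high arrays, from 6.25 to 7.41 in the Ly6C-low arrays and from 6.0 to 6.08 in monocytes, and 18 of the 19 were higher in Ly6C-high than in Ly6C-low microglia. The mean of 13 homeostatic microglia genes ran from 8.57 to 9.33, from 11.27 to 11.69 and from 7.55 to 7.6 in the same order, and 13 of 13 were lower in Ly6C-high microglia. The mean of 9 classical monocyte genes was 10.06 in Ly6C-high replicate 2 but 7.9 and 6.9 in replicates 1 and 3, with monocytes at 10.5 to 10.81. The mean of 12 neutrophil genes was 9.12 in Ly6C-low replicate 3 but 6.76 and 6.92 in replicates 1 and 2, with monocytes at 9.69 to 10.52. Marker means of other blood cells were also highest in the monocyte arrays: the mean of 8 lymphocyte genes ran from 7.86 to 8.3 there against 5.09 to 5.35 in the brain arrays, with 6 of the 8 lower in each brain sort, and that of 4 erythroid genes from 6.44 to 7.98 against 5.57 to 6.03, with 2 of the 4 lower in each. The mean of 9 pericyte and smooth muscle genes ran from 7.44 to 8.67 in the Ly6C-high arrays, from 6.41 to 7.34 in the Ly6C-low arrays and from 5.87 to 5.92 in monocytes. The mean of 7 choroid plexus genes was 7.44 in Ly6C-low replicate 1, against 5.26 to 6.68 in the other 8 arrays. The mean of 9 mitosis genes was 7.89 in Ly6C-high replicate 2 but 6.38 and 6.01 in replicates 1 and 3, with Ly6C-low arrays at 5.57 to 5.74 and monocytes at 6.74 to 7.75. Means of 9 neuron genes (4.76 to 5.33) lay under the median of all gene means (6.13) in every array. In such bulk samples a change in the share of a cell type and a change in RNA per cell cannot be told apart, and the part of these markers in the results on the enzymes was not tested.

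The group with the highest mean differed from gene to gene. The highest group mean was that of monocytes for 22 of the 33 genes, that of Ly6C-low microglia for 10 and that of Ly6C-high microglia for 1 (Pfkm). The 10 were Hk2, Hk3, Pfkl, Pfkfb3, Aldoc, Tpi1, Eno2, Ldhb, Pdk1 and Idh2. All 3 pentose phosphate genes had their highest mean in monocytes, as did every measured gene of pyruvate entry and the TCA cycle but Pdk1 and Idh2. The share of all genes with their highest mean in each group was not computed, so these counts cannot be read as particular to the enzymes. Aldoc and Tpi1 gave no call in any comparison as reported.

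**Figure D1:**
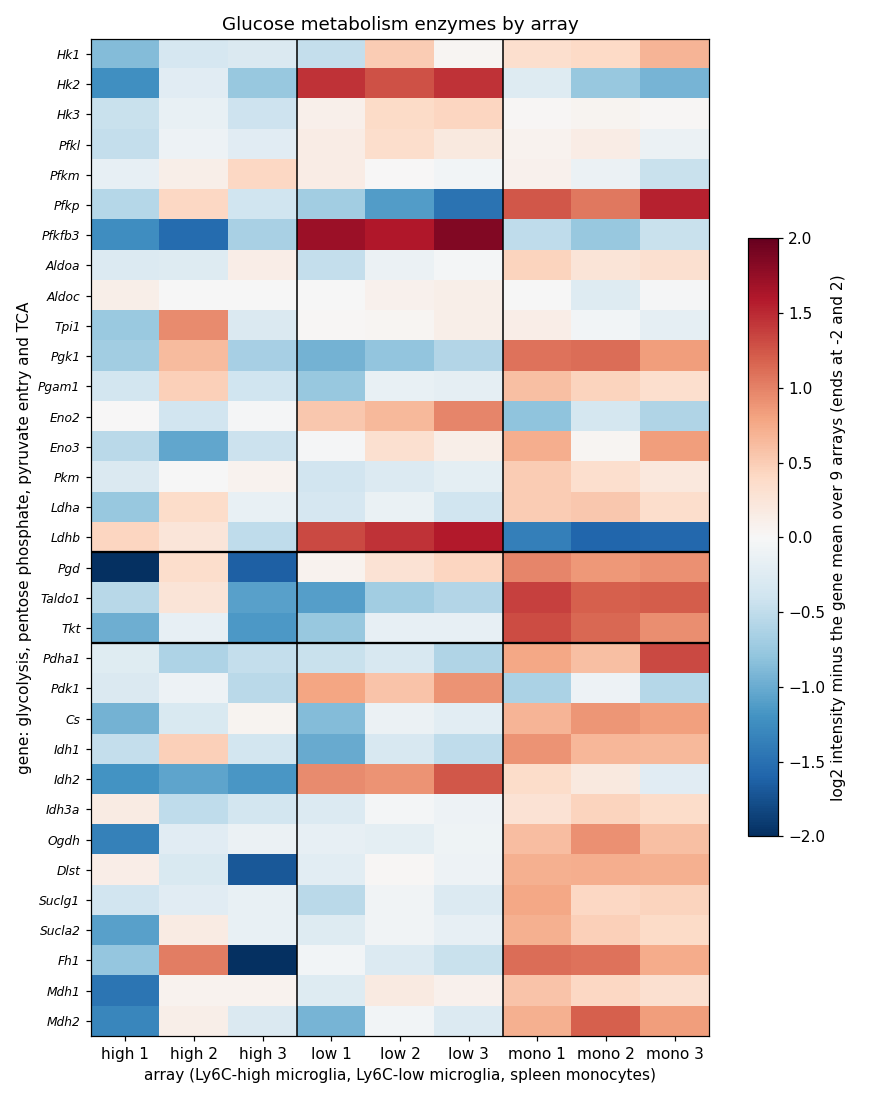
Log2 intensity of each of the 33 enzymes (rows) in each of the 9 arrays (columns), as the difference from the gene's mean over all 9 arrays. Hk2, Pfkfb3, Ldhb, Pdk1 and Idh2 stand out in the Ly6C-low columns, and most pentose phosphate and TCA genes in the monocyte columns, while Ly6C-high columns differ more among themselves.

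Between the brain sorts, 8 of the 33 enzymes were lower in Ly6C-high than in Ly6C-low microglia and 0 were higher at an adjusted p under 0.05 in limma. The 8 were Hk2, Hk3, Pfkl, Pfkfb3, Eno2, Ldhb, Pdk1 and Idh2. Of all genes tested, 11% were lower and 4.49% higher, and of genes with a mean at or above that of the median gene 6.71% were higher and 19.5% lower, the latter near the 24.2% of the enzymes. The median log2 difference was -0.20 over the enzymes and 0.05 over all genes. At an unadjusted p under 0.05, limma gave 1 enzyme higher and 10 lower. The count of 0 higher depended on the scaling of the arrays: after quantile normalization the split was 2 higher (Pfkp and Pkm) and 7 lower, and after cyclic loess 4 higher (Pfkp, Pgk1, Pkm and Ldha) and 6 lower. Of all genes 5.94% were higher and 8.29% lower after quantile normalization, and 6.49% and 8.3% after cyclic loess. The labels' descriptions give the brain arrays a second number, of which 2 pairs share one, and in a fit of the 6 brain arrays with that number as a block 2 of the 8 (Pfkfb3 and Idh2, adjusted p = 0.0394 each in limma) passed, while Hk2 (adjusted p = 0.0623), Hk3, Pfkl, Eno2, Ldhb and Pdk1 did not. In that fit 1.35% of all genes were lower, against 11% as reported, so the loss of calls was not particular to the enzymes.

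Set against monocytes, the Ly6C-high sort was lower in 15 enzymes and higher in 1, Ldhb. Here 14.6% of all genes were lower and 6.88% higher, and of genes at or above the median gene 8.22% were higher and 25.9% lower, against 45.5% of the enzymes. The median log2 difference was -0.87 over the enzymes and 0.09 over all genes. The classical monocyte, neutrophil, lymphocyte and erythroid means differed between these groups too, and their part was not tested. The 15 fell to 9, 7 and 8 without monocyte replicate 1, 2 or 3, and to 7 after quantile normalization and 8 after cyclic loess. Of all genes 8.73%, 8.87% and 10.2% were lower without those replicates, and 8.67% and 9.82% after those scalings. The enzymes called against monocytes under each of the 20 alternatives (other fits, scalings, filters and probe sets, and arrays left out) were Pfkp, Ldhb, Taldo1, Tkt, Pdha1 and Idh2, or 6 of the 16 calls. The alternatives took the mean of the Ldhb probe sets but not its second probe set alone. In that set Ly6C-high arrays (7.46, 8.11 and 8.22) and monocyte arrays (7.50, 7.38 and 7.03) overlapped, so the call of Ldhb depends on the probe set.

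The Ly6C-low sort exceeded monocytes in 6 enzymes and was lower in 11. The higher ones were Hk2, Pfkfb3, Eno2, Ldhb, Pdk1 and Idh2. The background was 6.8% of all genes higher and 7.71% lower, or 10.5% and 12.6% of genes at or above the median gene, against 18.2% and 33.3% of the enzymes. The median log2 difference was -0.63 over the enzymes and 0.05 over all genes. Of these 17 calls, 13 held under each of the 20 alternatives. The 11 lower fell to 7 without monocyte replicate 1, where 5.04% of all genes were lower.

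**Figure D2:**
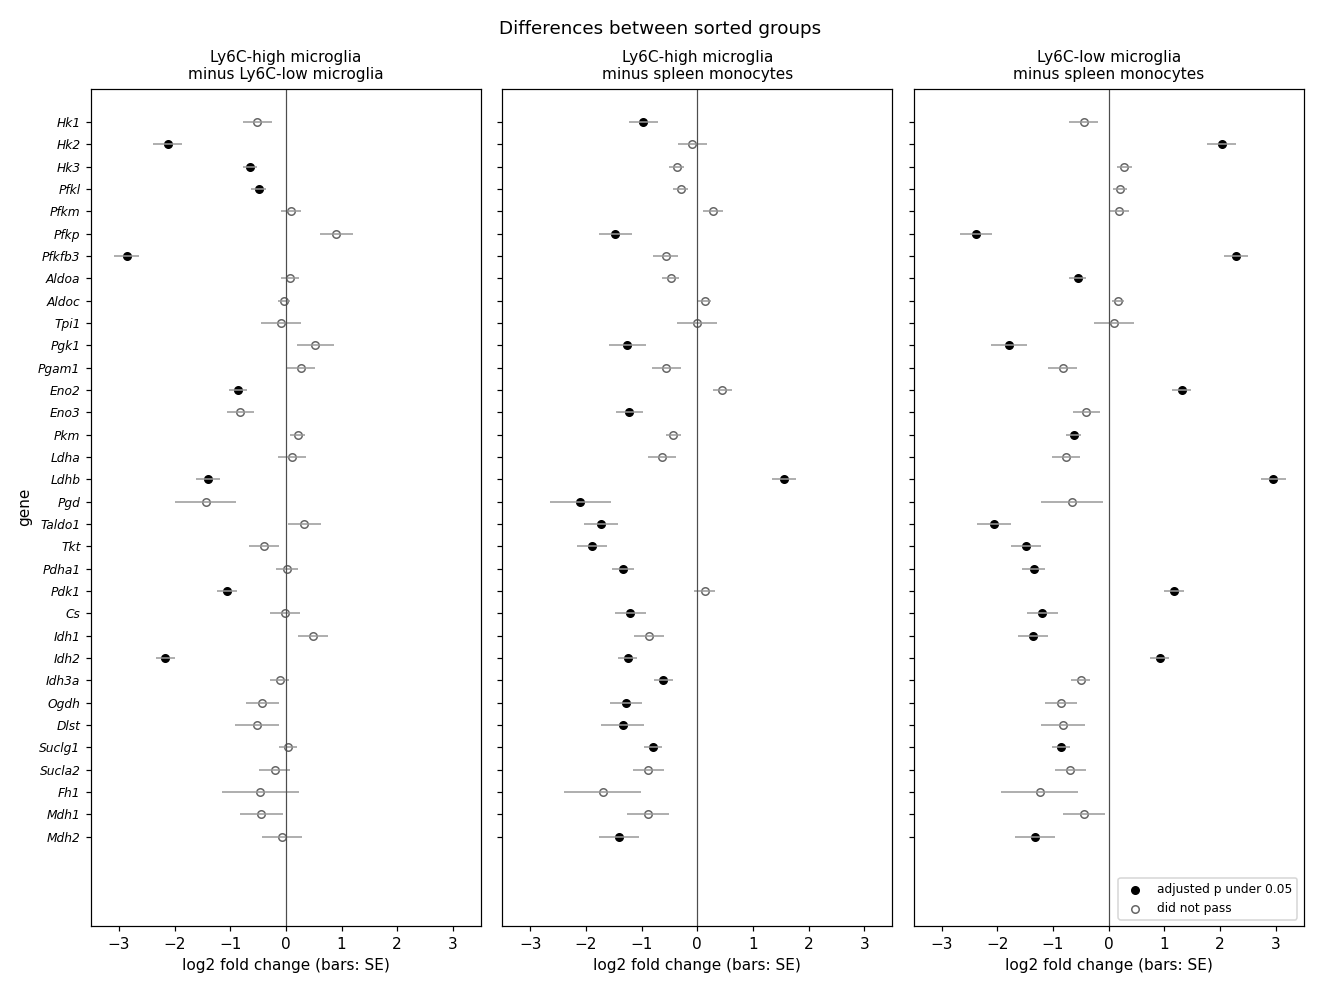
Log2 fold change (points) with its SE (bars) for the 33 enzymes in the 3 comparisons, with filled points where limma's adjusted p was under 0.05. Calls in the left panel lie below zero in all 8 cases, and in the middle panel Ldhb (1.56) is the 1 call above zero.

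Hexokinases catalyse the entry step. Hk2, the inducible form that binds mitochondria, read 6.17, 7.16 and 6.63 in the Ly6C-high arrays, 8.83, 8.66 and 8.84 in the Ly6C-low arrays and 7.13, 6.64 and 6.46 in monocytes. All Ly6C-low arrays lay above all others, and the Ly6C-high and monocyte arrays overlapped. Hk2 was 4.36-fold lower in Ly6C-high than in Ly6C-low microglia (log2 difference -2.12, SE 0.26, limma adjusted p = 8.93e-04) and 4.09-fold higher in Ly6C-low microglia than monocytes (2.03, SE 0.26, adjusted p = 0.0011), while Ly6C-high microglia and monocytes differed by -0.09 (SE 0.26). Hk3, the form of myeloid cells, was 6.38 ± 0.17, 7.03 ± 0.18 and 6.75 ± 0.02 in Ly6C-high microglia, Ly6C-low microglia and monocytes. It was lower in Ly6C-high than in Ly6C-low microglia by a smaller amount (-0.64, SE 0.13, limma adjusted p = 0.0111), a call lost without Ly6C-low replicate 2 or 3, with adjusted p up to 0.270 over the alternatives.

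Hk1, the constitutive form, could not be read cleanly. Its brightest single-symbol probe set (10414661) carries the name through 1 cDNA record that all 15 probe sets annotated to both Rpl17 and Hk1 also carry, and it tracked 9 of those 15 with Pearson's r of at least 0.9 over the 9 arrays. That probe set gave a lower value in Ly6C-high microglia (10.21 ± 0.31) than in monocytes (11.17 ± 0.18; log2 difference -0.97, SE 0.26, limma adjusted p = 0.03). The probe set with RefSeq records (10369541) read 6.73 ± 0.72, 6.90 ± 0.13 and 7.45 ± 0.09 in Ly6C-high microglia, Ly6C-low microglia and monocytes, and with it the call was lost. The 15 enzymes lower in Ly6C-high microglia than monocytes are then 14.

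Phosphofructokinase is the committed step, built from liver (Pfkl), muscle (Pfkm) and platelet (Pfkp) subunits, and Pfkfb3 makes the sugar bisphosphate that activates it. Pfkfb3 showed the largest difference of any of the enzymes between the brain sorts. It read 7.60, 7.30 and 8.20 in the Ly6C-high arrays, 10.55, 10.45 and 10.69 in the Ly6C-low arrays and 8.33, 8.09 and 8.40 in monocytes. The Ly6C-low arrays stood apart above both other groups, and Ly6C-high replicate 3 reached the range of monocytes. Pfkfb3 was 7.27-fold lower in Ly6C-high than in Ly6C-low microglia (-2.86, SE 0.22, limma adjusted p = 9.20e-05) and 4.89-fold higher in Ly6C-low microglia than monocytes (2.29, SE 0.22, adjusted p = 2.02e-04).

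The subunits of phosphofructokinase did not share a pattern. Pfkp read 6.67, 7.66 and 6.84 in the Ly6C-high arrays, 6.55, 6.13 and 5.76 in the Ly6C-low arrays and 8.49, 8.30 and 8.78 in monocytes. The groups did not overlap and ran from monocytes down to Ly6C-low microglia. Pfkp was 5.19-fold lower in Ly6C-low microglia than monocytes (-2.38, SE 0.29, limma adjusted p = 8.96e-04) and 2.77-fold lower in Ly6C-high microglia (-1.47, SE 0.29, adjusted p = 0.009), and the difference between the brain sorts did not pass (0.91, SE 0.29, adjusted p = 0.0738). Pfkl was 6.52 ± 0.19 in Ly6C-high and 7.02 ± 0.11 in Ly6C-low microglia. That small difference (-0.49, SE 0.13, limma adjusted p = 0.036) lost its call in 15 of 21 alternatives, with adjusted p up to 0.394. Pfkm lay between 5.55 and 6.40 in the 9 arrays and gave no call.

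Promoters of Hk2, Pfkfb3, Ldha and Pgk1 are shown because the response to low oxygen is known to act on all 4 genes through hypoxia response elements, while these data moved Hk2 and Pfkfb3 between the brain sorts and gave no call for Ldha and Pgk1 there. The sequences are the 250 bases before the gene start on the sense strand, from RefSeq with build GRCm38.p6: chr6:82774455-82774704 for Hk2 and chr2:11553930-11554179 for Pfkfb3, both on the minus strand, and chr7:46845554-46845803 for Ldha and chrX:106186850-106187099 for Pgk1, both on the plus strand. Capitals mark the motif ACGTG, the core of the hypoxia response element, or its reverse complement, and both overlap the E-box CACGTG, which is counted on both strands. For genes with several starts, a window that holds the motif is printed.
Hk2: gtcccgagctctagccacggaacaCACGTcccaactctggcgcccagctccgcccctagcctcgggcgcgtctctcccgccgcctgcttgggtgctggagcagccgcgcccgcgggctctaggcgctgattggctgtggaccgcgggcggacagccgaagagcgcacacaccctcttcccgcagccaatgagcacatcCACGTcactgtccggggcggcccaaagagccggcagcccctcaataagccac
Pfkfb3: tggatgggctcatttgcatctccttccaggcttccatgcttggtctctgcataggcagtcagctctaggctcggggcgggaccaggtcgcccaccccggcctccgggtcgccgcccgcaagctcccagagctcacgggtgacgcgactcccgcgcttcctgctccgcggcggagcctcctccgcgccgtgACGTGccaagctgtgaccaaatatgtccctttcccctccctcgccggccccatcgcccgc
Ldha: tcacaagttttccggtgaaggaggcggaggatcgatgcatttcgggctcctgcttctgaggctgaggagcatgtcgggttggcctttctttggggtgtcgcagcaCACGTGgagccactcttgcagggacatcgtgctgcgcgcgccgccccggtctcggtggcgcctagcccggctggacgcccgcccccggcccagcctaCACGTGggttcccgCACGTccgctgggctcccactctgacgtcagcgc
Pgk1: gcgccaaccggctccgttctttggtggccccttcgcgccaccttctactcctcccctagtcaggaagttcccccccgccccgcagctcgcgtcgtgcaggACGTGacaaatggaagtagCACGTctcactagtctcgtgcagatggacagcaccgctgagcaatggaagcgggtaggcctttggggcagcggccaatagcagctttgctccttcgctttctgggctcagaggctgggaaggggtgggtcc
Of the 4 printed windows, that of Ldha held the most matches, with 5 over both strands, against 2 in Hk2, 1 in Pfkfb3 and 2 in Pgk1. Another start of Pfkfb3 had 2 matches and another start of Ldha had 0, so this order depends on the start printed. In windows of 300 bases, from 250 before to 50 after the start, the motif occurred in 19.6% of 32851 windows and in at least 1 window of 21.8% of 27025 genes. Of the 33 enzymes 32 were in that table and 13 held the motif (40.6%). It stood in 3 of the 8 enzymes lower in Ly6C-high microglia (Hk2, Hk3 and Pfkfb3) and in 10 of the 24 others. A match is a run of letters and does not show that a factor binds there.

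Of the enzymes between phosphofructokinase and enolase, none was called between the brain sorts as reported, though Pgk1 was higher in Ly6C-high microglia after cyclic loess (limma adjusted p = 0.0464) and Tpi1 lower there without Ly6C-high replicate 2 (adjusted p = 0.0445). Pgk1, the phosphoglycerate kinase of the ATP-making steps, read 7.82, 9.15 and 7.85 in the Ly6C-high arrays, 7.57, 7.73 and 7.93 in the Ly6C-low arrays and 9.60, 9.64 and 9.35 in monocytes. The brain arrays overlapped and the monocytes lay above all of them. Pgk1 was 3.45-fold lower in Ly6C-low microglia than monocytes (-1.79, SE 0.33, limma adjusted p = 0.007) and 2.39-fold lower in Ly6C-high microglia (-1.26, SE 0.33, adjusted p = 0.0275), where the call was lost in 8 of 20 alternatives. Aldoa, the main aldolase, was 10.22 ± 0.23, 10.14 ± 0.23 and 10.70 ± 0.09 in Ly6C-high microglia, Ly6C-low microglia and monocytes, and was called lower in Ly6C-low microglia than monocytes by a narrow margin (-0.56, SE 0.16, limma adjusted p = 0.049). Aldoc, the brain aldolase, lay between 5.54 and 5.91 in all arrays. Tpi1, triosephosphate isomerase, spread from 7.75 to 9.45 within Ly6C-high microglia, and Pgam1, phosphoglycerate mutase, from 8.14 to 9.01, and neither gave a call in any comparison as reported. Aldoa, Tpi1, Pgk1, Pgam1, Pkm and Ldha have processed pseudogene copies in the mouse genome, so their probes may also read other loci.

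The enolases differed in where they were highest. Eno2, the neuronal form, read 5.57, 5.19 and 5.55 in the Ly6C-high arrays, 6.11, 6.22 and 6.54 in the Ly6C-low arrays and 4.76, 5.22 and 4.97 in monocytes. It was dim throughout, with the Ly6C-low arrays above all others. Eno2 was lower in Ly6C-high than in Ly6C-low microglia (log2 difference -0.86, SE 0.17, limma adjusted p = 0.0116) and higher in Ly6C-low microglia than monocytes (1.31, SE 0.17, adjusted p = 0.0014), and no fold is given because both lower groups were near background. Eno3, the muscle form, read 6.92, 6.42 and 7.03 in the Ly6C-high arrays, 7.45, 7.79 and 7.58 in the Ly6C-low arrays and 8.20, 7.51 and 8.30 in monocytes. The Ly6C-high arrays were the lowest, and Ly6C-low and monocyte arrays overlapped. Eno3 was 2.32-fold lower in Ly6C-high microglia than monocytes (-1.22, SE 0.24, limma adjusted p = 0.0087), and between the brain sorts it did not pass (-0.82, SE 0.24, adjusted p = 0.0534).

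Pkm, pyruvate kinase of non-liver tissue, read 9.74, 10.01 and 10.10 in the Ly6C-high arrays, 9.64, 9.75 and 9.83 in the Ly6C-low arrays and 10.53, 10.36 and 10.24 in monocytes. Its brain arrays were close to each other and below all monocyte arrays. Pkm was 1.55-fold lower in Ly6C-low microglia than monocytes (-0.63, SE 0.13, limma adjusted p = 0.0127), and the difference of Ly6C-high microglia from monocytes (-0.43, SE 0.13) did not pass. A second probe set of Pkm (10528480) read 8.83 ± 0.64, 8.84 ± 0.30 and 9.47 ± 0.07 in Ly6C-high microglia, Ly6C-low microglia and monocytes.

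Lactate dehydrogenase is a tetramer of A and B subunits, of which the A form is known to favour lactate production and the B form lactate use. Ldhb read 9.37, 9.18 and 8.43 in the Ly6C-high arrays, 10.26, 10.39 and 10.53 in the Ly6C-low arrays and 7.57, 7.35 and 7.37 in monocytes. The 3 groups did not overlap, with Ly6C-low microglia highest and monocytes lowest. Ldhb was 7.80-fold higher in Ly6C-low microglia than monocytes (2.96, SE 0.22, limma adjusted p = 6.71e-05), 2.96-fold higher in Ly6C-high microglia than monocytes (1.56, SE 0.22, adjusted p = 0.0019) and 2.64-fold lower in Ly6C-high than in Ly6C-low microglia (-1.40, SE 0.22, adjusted p = 0.0036). After cyclic loess the difference between the brain sorts fell to -0.97 and lost its call.

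The second probe set of Ldhb (10462035) placed the groups in part elsewhere. It read 7.46, 8.11 and 8.22 in the Ly6C-high arrays, 9.85, 10.70 and 10.66 in the Ly6C-low arrays and 7.50, 7.38 and 7.03 in monocytes. It too was highest in all Ly6C-low arrays, but its Ly6C-high and monocyte arrays overlapped. Ldha read 8.12, 9.25 and 8.73 in the Ly6C-high arrays, 8.54, 8.75 and 8.48 in the Ly6C-low arrays and 9.38, 9.42 and 9.23 in monocytes. Ldha gave no call in any comparison, with log2 differences of 0.11 (SE 0.25) between the brain sorts, -0.64 (SE 0.25) for Ly6C-high microglia against monocytes and -0.76 (SE 0.25) for Ly6C-low microglia against monocytes. Without Ly6C-high replicate 2, both differences of Ldha from monocytes passed, at -0.92 (limma adjusted p = 0.0104) and -0.76 (adjusted p = 0.0204). The second of these did not change in size, as that array is in neither of its groups and enters only the shared spread. That replicate held the highest classical monocyte, neutrophil and mitosis means of its group, and their part was not tested.

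**Figure D3:**
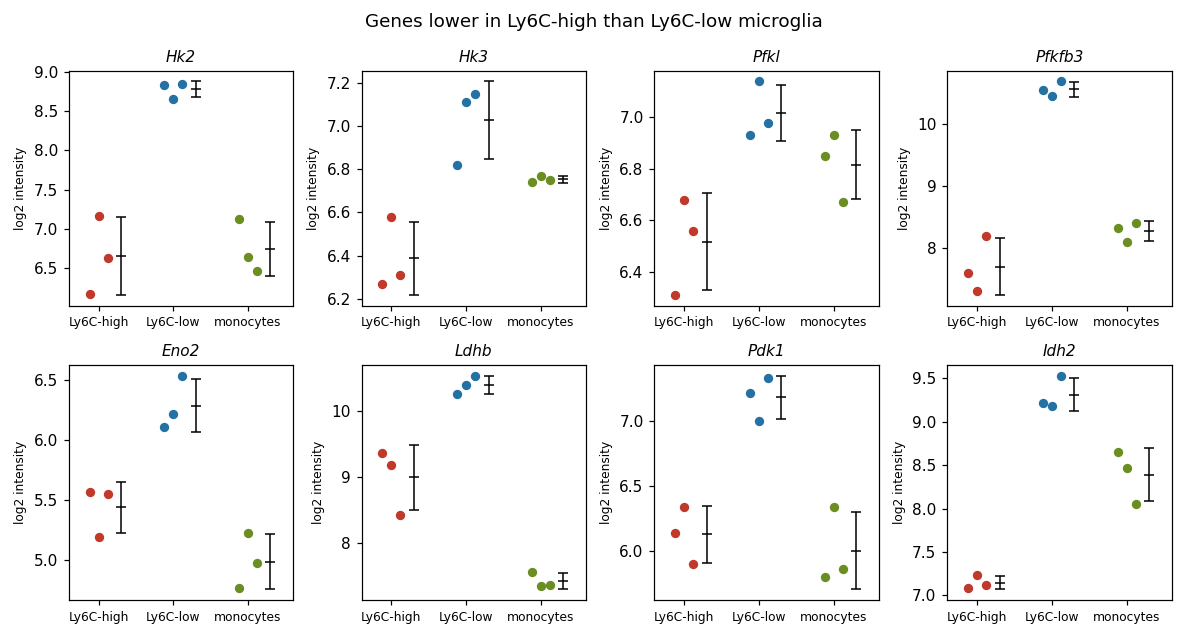
Log2 intensity of the 8 enzymes lower in Ly6C-high than in Ly6C-low microglia, by array (points), with mean and SD (bars, n = 3) for each group; each panel has its own axis. In every panel but that of Pfkl, where 1 Ly6C-low and 1 monocyte array stand at 6.93, each Ly6C-low array lies above all other arrays, and Ldhb is the panel in which all monocyte arrays lie below all Ly6C-high arrays.

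Of the pentose phosphate pathway, all 3 measured genes were lower in Ly6C-high microglia than monocytes. The share was 14.6% of all genes and 25.9% of genes at or above the median gene. In Ly6C-low microglia 2 of the 3 were lower than in monocytes, against 7.71% of all genes and 12.6% of genes at or above the median gene. Between the brain sorts 0 of the 3 were called in limma, against 15.4% of all genes. At an unadjusted p under 0.05 in limma, 0 of them were higher and 1 lower there. Taldo1, transaldolase of the non-oxidative branch, read 8.56, 9.37 and 8.04 in the Ly6C-high arrays, 8.01, 8.42 and 8.53 in the Ly6C-low arrays and 10.49, 10.32 and 10.33 in monocytes. Every monocyte array lay above every brain array. Taldo1 was 3.31-fold lower in Ly6C-high microglia (-1.73, SE 0.30, limma adjusted p = 0.0051) and 4.17-fold lower in Ly6C-low microglia (-2.06, SE 0.30, adjusted p = 0.0023).

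Tkt, transketolase of the same branch, read 7.26, 8.07 and 7.09 in the Ly6C-high arrays, 7.47, 8.07 and 8.07 in the Ly6C-low arrays and 9.54, 9.38 and 9.16 in monocytes. The brain sorts overlapped and lay below monocytes. Tkt was 3.69-fold lower in Ly6C-high microglia than monocytes (-1.89, SE 0.27, limma adjusted p = 0.002) and 2.80-fold lower in Ly6C-low microglia (-1.49, SE 0.27, adjusted p = 0.0071).

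Pgd, which makes NADPH in the oxidative branch, read 6.74, 9.35 and 7.37 in the Ly6C-high arrays, 9.06, 9.29 and 9.42 in the Ly6C-low arrays and 9.97, 9.86 and 9.91 in monocytes. Ly6C-high replicate 2 lay among the Ly6C-low arrays, and replicates 1 and 3 lay below them. Pgd was 4.29-fold lower in Ly6C-high microglia than monocytes (-2.10, SE 0.55, limma adjusted p = 0.0285), a call lost in 8 of 20 alternatives, and between the brain sorts it did not pass (-1.44, SE 0.55, adjusted p = 0.127). Without Ly6C-high replicate 2, Pgd differed between the brain sorts by -2.21 (limma adjusted p = 3.72e-04) and between Ly6C-high microglia and monocytes by -2.86 (adjusted p = 7.04e-05). The classical monocyte mean of that replicate was 10.06, against 7.9 and 6.9 in the other Ly6C-high arrays. Its neutrophil mean (7.58, against 6.24 and 6.3) and mitosis mean (7.89, against 6.38 and 6.01) were also the highest of its group. The part of these in the value of Pgd was not tested.

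**Figure D4:**
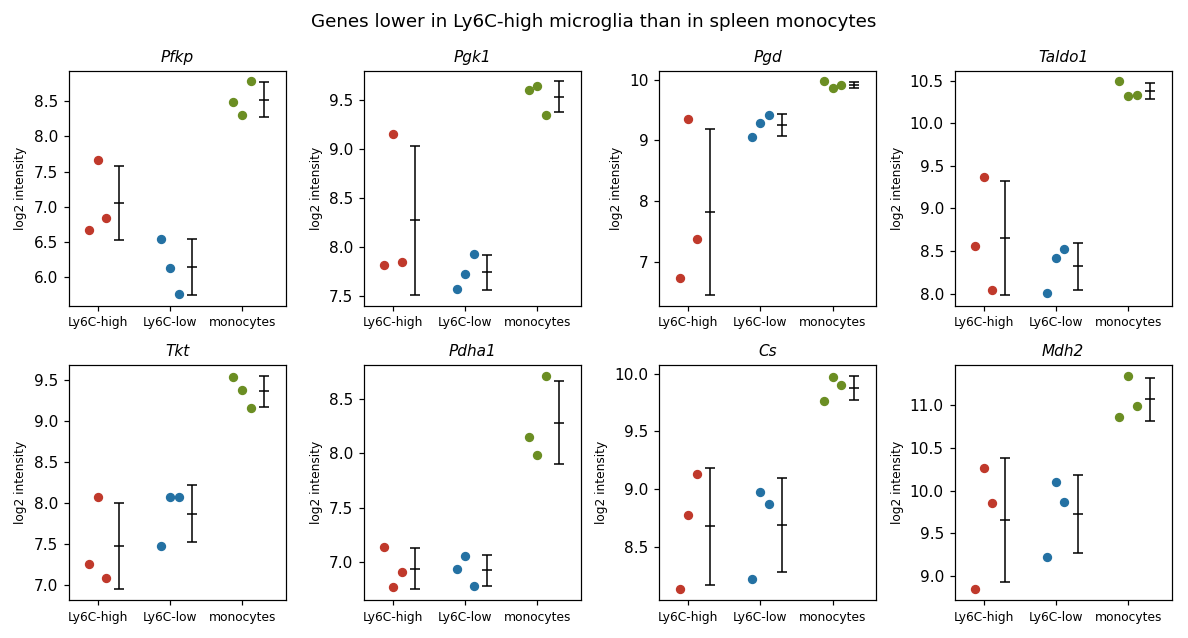
Log2 intensity of 8 enzymes that were lower in Ly6C-high microglia than monocytes, by array (points), with mean and SD (bars, n = 3) for each group; each panel has its own axis. Monocyte arrays lie above all brain arrays in every panel, and in the Pgd panel Ly6C-high replicate 2 (9.35) lies apart from replicates 1 and 3.

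Entry of pyruvate into the TCA cycle is set by pyruvate dehydrogenase and the kinases that switch it off. Pdha1, the catalytic subunit, read 7.14, 6.77 and 6.91 in the Ly6C-high arrays, 6.94, 7.06 and 6.78 in the Ly6C-low arrays and 8.15, 7.98 and 8.71 in monocytes. The brain sorts overlapped, and Pdha1 was 2.53-fold lower in Ly6C-high microglia than monocytes (-1.34, SE 0.20, limma adjusted p = 0.0021) and 2.55-fold lower in Ly6C-low microglia (-1.35, SE 0.20, adjusted p = 0.0021). Pdk1, a kinase that inhibits the complex, went another way. It read 6.14, 6.34 and 5.90 in the Ly6C-high arrays, 7.22, 7.00 and 7.33 in the Ly6C-low arrays and 5.80, 6.34 and 5.86 in monocytes. Pdk1 was highest in all Ly6C-low arrays, 2.08-fold above Ly6C-high microglia (Ly6C-high minus Ly6C-low -1.05, SE 0.18, limma adjusted p = 0.0049) and 2.27-fold above monocytes (1.18, SE 0.18, adjusted p = 0.0028).

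Of the 13 genes of pyruvate entry and the TCA cycle, 2 (Pdk1 and Idh2) were lower in Ly6C-high than in Ly6C-low microglia. Against monocytes 8 were lower in Ly6C-high microglia, and in Ly6C-low microglia 5 were lower and 2 higher. The 15.4% lower between the brain sorts lay between the 11% of all genes and the 19.5% of genes at or above the median gene. Against monocytes, 61.5% were lower in Ly6C-high microglia, where 14.6% of all genes and 25.9% of genes at or above the median gene were. In Ly6C-low microglia 38.5% were lower and 15.4% higher, against 7.71% and 6.8% of all genes. Of genes at or above the median gene 12.6% were lower and 10.5% higher there. Idh2, the mitochondrial NADP-linked isocitrate dehydrogenase, read 7.09, 7.23 and 7.12 in the Ly6C-high arrays, 9.22, 9.18 and 9.53 in the Ly6C-low arrays and 8.65, 8.47 and 8.05 in monocytes. The groups did not overlap, and the Ly6C-high arrays, which were close to each other, were lowest. Idh2 was 4.49-fold lower in Ly6C-high than in Ly6C-low microglia (-2.17, SE 0.17, limma adjusted p = 1.09e-04), 2.37-fold lower in Ly6C-high microglia than monocytes (-1.25, SE 0.17, adjusted p = 0.0014) and 1.89-fold higher in Ly6C-low microglia than monocytes (0.92, SE 0.17, adjusted p = 0.0072).

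Idh1, the cytosolic counterpart, read 7.10, 8.05 and 7.20 in the Ly6C-high arrays, 6.56, 7.25 and 7.07 in the Ly6C-low arrays and 8.47, 8.24 and 8.23 in monocytes. Its monocyte arrays were the highest, and the difference passed for Ly6C-low microglia (-1.36, SE 0.27, limma adjusted p = 0.0108) but not for Ly6C-high microglia (-0.87, SE 0.27, adjusted p = 0.0532). Idh3a, a subunit of the NAD-linked enzyme, was 5.69 ± 0.35 in Ly6C-high microglia and 6.30 ± 0.08 in monocytes, a call (-0.61, SE 0.17, limma adjusted p = 0.0381) lost in 10 of 20 alternatives.

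Citrate synthase (Cs) opens the cycle and mitochondrial malate dehydrogenase (Mdh2) closes it, and both were lower in each brain sort than in monocytes. Cs read 8.13, 8.77 and 9.13 in the Ly6C-high arrays, 8.22, 8.97 and 8.87 in the Ly6C-low arrays and 9.76, 9.97 and 9.90 in monocytes. It was 2.30-fold lower in Ly6C-high microglia than monocytes (-1.20, SE 0.27, limma adjusted p = 0.0165) and 2.28-fold lower in Ly6C-low microglia (-1.19, SE 0.27, adjusted p = 0.021). The brain sorts overlapped in Cs, at 8.68 ± 0.51 and 8.68 ± 0.41.

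Mdh2, mitochondrial malate dehydrogenase, read 8.85, 10.26 and 9.86 in the Ly6C-high arrays, 9.22, 10.10 and 9.87 in the Ly6C-low arrays and 10.86, 11.34 and 10.99 in monocytes. It was 2.66-fold lower in Ly6C-high microglia than monocytes (-1.41, SE 0.36, limma adjusted p = 0.0262) and 2.52-fold lower in Ly6C-low microglia (-1.33, SE 0.36, adjusted p = 0.0415). Replicate 1 was the lowest of both brain sorts. Mdh1, the cytosolic form, was 8.54 ± 0.89, 8.98 ± 0.23 and 9.42 ± 0.13 in Ly6C-high microglia, Ly6C-low microglia and monocytes and gave no call.

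The oxoglutarate dehydrogenase complex, which follows isocitrate dehydrogenase, was lower in Ly6C-high microglia than monocytes in its first components, Ogdh and Dlst. Ogdh read 6.51, 7.64 and 7.75 in the Ly6C-high arrays, 7.71, 7.68 and 7.78 in the Ly6C-low arrays and 8.49, 8.78 and 8.47 in monocytes (Ly6C-high minus monocytes -1.28, SE 0.29, limma adjusted p = 0.0165). Dlst read 8.45, 8.02 and 6.62 in the Ly6C-high arrays, 8.10, 8.34 and 8.22 in the Ly6C-low arrays and 9.03, 9.05 and 9.03 in monocytes (-1.34, SE 0.39, limma adjusted p = 0.0428). Replicate 1 pulled the Ly6C-high mean of Ogdh down and replicate 3 that of Dlst, and the call for Dlst was lost in 10 of 20 alternatives.

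The succinyl-CoA ligase subunits and fumarase complete the set. Suclg1 was 7.25 ± 0.12 and 7.20 ± 0.24 in the brain sorts and 8.05 ± 0.20 in monocytes, lower in Ly6C-high microglia (-0.80, SE 0.16, limma adjusted p = 0.0084) and in Ly6C-low microglia (-0.85, SE 0.16, adjusted p = 0.0077). Sucla2 was 6.98 ± 0.65, 7.18 ± 0.09 and 7.87 ± 0.16 in Ly6C-high microglia, Ly6C-low microglia and monocytes and gave no call. Fh1, fumarase, had the widest spread of all the enzymes within a group: 6.74, 8.55 and 5.12 in Ly6C-high microglia, against 7.46, 7.24 and 7.08 in Ly6C-low microglia and 8.63, 8.60 and 8.26 in monocytes. Fh1 gave no call, and without Ly6C-high replicate 2 it was lower in Ly6C-high microglia than monocytes (-2.57, limma adjusted p = 0.00351).

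The Ly6C-high arrays differed among themselves in these genes more than in genes at large. The median SD of the enzymes was 0.49 in the Ly6C-high arrays, 0.18 in the Ly6C-low arrays and 0.16 in monocytes, against 0.27, 0.14 and 0.11 over all genes. Most of the enzymes had a mean at or above that of the median gene, and genes of like brightness were not compared in SD. Of the 33 enzymes 15 had an SD over 0.5 in Ly6C-high microglia and 0 in Ly6C-low microglia. The share of all genes over that SD was not computed, so the 15 cannot be read as particular to the enzymes. Ly6C-high replicate 2 was the highest of its group for 17 of the 33 enzymes, against 27.6% of all genes, and replicate 1 the lowest for 20, against 30.2%. Ly6C-low replicate 1 was the lowest of its group for 23 of 33, against 35.1% of all genes. It was the highest for 3 of 33, against 48.2% of all genes, and Ly6C-high replicate 1 for 6, against 48.5%. The endothelium mean of Ly6C-low replicate 1 (7.41) was the highest of its group. So were its pericyte and smooth muscle, choroid plexus, astrocyte, oligodendrocyte, neuron, lymphocyte and erythroid means. Its homeostatic microglia (11.27), classical monocyte, neutrophil and mitosis means were the lowest. Without Ly6C-high replicate 2 there were 10 enzymes lower in Ly6C-high than in Ly6C-low microglia, with Tpi1 (-0.58, limma adjusted p = 0.0445) and Pgd added to the 8, and 20 lower than monocytes, of which 14 were among the 15. The 1 higher than monocytes became 2 with Eno2 (0.57, limma adjusted p = 0.0453). Without that replicate 13.5% of all genes were lower between the brain sorts, against 11% as reported. Against monocytes 19% were lower and 11.6% higher, where 14.6% and 6.88% were as reported. Neither the markers nor the array-wide differences were tested as the source of this spread.

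Where a step has several forms of an enzyme, the difference of their log2 values within an array gives a balance that a shift of the whole array leaves unchanged. Since the probes of 2 forms differ in brightness, the size of a balance in an array is no ratio of the enzymes, and only its difference between groups can be read. In all, 12 such balances were compared in 3 contrasts, and the arrays did not overlap in 25 of the 36 comparisons. The share without overlap among other pairs of genes was not computed, so the 25 cannot be read as particular to these enzymes. Several balances share a gene and the contrasts share arrays, so the 36 are not independent. With 3 arrays against 3 the exact two-sided permutation test cannot go below p = 0.1, which Benjamini-Hochberg adjustment over the 36 makes 0.144, so none could pass. The balance Ldhb minus Ldha was 1.25, -0.07 and -0.30 in the Ly6C-high arrays, 1.72, 1.64 and 2.05 in the Ly6C-low arrays and -1.81, -2.07 and -1.86 in monocytes. With this brightest probe set of Ldhb the 3 groups stood apart, and Ly6C-high replicate 1 lay closest to the Ly6C-low arrays. In the second probe set of Ldhb that replicate read lowest of its group (7.46, against 8.11 and 8.22). Its place in the balance therefore depends on the probe set.

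The balance Idh2 minus Idh1 was -0.01, -0.83 and -0.08 in the Ly6C-high arrays, 2.66, 1.93 and 2.46 in the Ly6C-low arrays and 0.18, 0.23 and -0.18 in monocytes. Ly6C-low microglia stood apart from both, which overlapped. The balance Pfkp minus Pfkl was 0.35, 0.98 and 0.28, then -0.38, -1.01 and -1.22, then 1.64, 1.36 and 2.11 in the same order of groups. It was highest in all monocyte arrays and lowest in all Ly6C-low arrays. Hk2 minus Hk1, with the RefSeq-supported probe set of Hk1, was 0.27, 0.01 and -0.50 in the Ly6C-high arrays, 1.84, 1.91 and 1.89 in the Ly6C-low arrays and -0.23, -0.82 and -1.07 in monocytes. The Ly6C-low arrays were close to each other and far from the rest. The balances of Sucla2 and Suclg1 overlapped in all 3 comparisons.

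**Figure D5:**
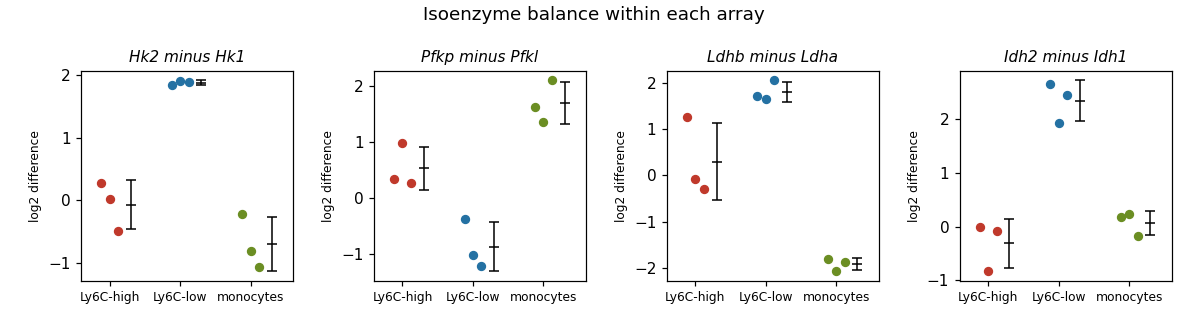
Difference of the log2 values of 2 enzyme forms within each array (points), with mean and SD (bars, n = 3) for each group; each panel has its own axis, and Hk1 is read by its RefSeq-supported probe set. Ly6C-low arrays are highest for Hk2 minus Hk1, Ldhb minus Ldha and Idh2 minus Idh1 and lowest for Pfkp minus Pfkl.

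Transporters carry glucose into the cell and lactate across the membrane. Of 10 measured transporter genes, 3 were higher and 4 lower in Ly6C-high than in Ly6C-low microglia, 3 higher and 4 lower than in monocytes, and the Ly6C-low sort had 4 above and 3 below monocytes. In shares these are 30% and 40% between the brain sorts, against 4.49% and 11% of all genes, 30% and 40% against 6.88% and 14.6% for Ly6C-high microglia and monocytes, and 40% and 30% against 6.8% and 7.71% for Ly6C-low microglia and monocytes. For genes at or above the median gene the shares were 6.71% and 19.5%, 8.22% and 25.9%, and 10.5% and 12.6% in these comparisons. Slc2a1, the glucose transporter of the blood-brain barrier, read 12.15, 12.14 and 12.17 in the Ly6C-high arrays, 10.61, 10.65 and 10.36 in the Ly6C-low arrays and 10.00, 9.88 and 9.65 in monocytes. It was 4.97-fold higher in Ly6C-high microglia than monocytes (2.31, SE 0.13, limma adjusted p = 1.61e-05). Bsg, the chaperone of the lactate transporters, was 12.39 ± 0.29, 10.51 ± 0.18 and 9.72 ± 0.20 in Ly6C-high microglia, Ly6C-low microglia and monocytes, 3.69-fold higher in Ly6C-high than in Ly6C-low microglia (1.88, SE 0.18, limma adjusted p = 2.47e-04).

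The lactate transporters were split. Slc16a1 read 7.27, 8.48 and 9.65 in Ly6C-high microglia and was higher there than in Ly6C-low microglia (6.60 ± 0.12; 1.87, SE 0.50, limma adjusted p = 0.0381), a call lost in 11 of 21 alternatives. Slc16a3, the lactate exporter of glycolytic cells, was 7.27 ± 0.30, 8.07 ± 0.07 and 10.25 ± 0.38 in Ly6C-high microglia, Ly6C-low microglia and monocytes, 7.89-fold lower in Ly6C-high microglia than monocytes (-2.98, SE 0.21, limma adjusted p = 4.78e-05). Slc16a7 was lower in Ly6C-high (5.53 ± 0.70) than Ly6C-low microglia (7.43 ± 0.40; -1.90, SE 0.33, limma adjusted p = 0.0054). Slc2a5, the fructose transporter known from microglia, was 5.23 ± 0.28, 6.31 ± 0.37 and 5.06 ± 0.12 in Ly6C-high microglia, Ly6C-low microglia and monocytes, lower in the Ly6C-high than in the Ly6C-low sort (-1.08, SE 0.21) and higher in the Ly6C-low sort than in monocytes (1.25, SE 0.21). Slc2a8, which like the others named outside the rule was chosen after its values were seen, took the same course (-0.85 and 0.96, SE 0.20 each). Slc2a3 (-1.47 and -1.23) and Slc2a6 (-2.35 and -2.55) were lower in both brain sorts, Ly6C-high and Ly6C-low in that order, than in monocytes. Slc2a1, Bsg and Slc16a1 are also known from brain endothelium, whose list mean ran from 10.1 to 10.56 in the Ly6C-high arrays, and the part of that in these values was not tested.

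Other genes of the same pathways were read from lists chosen with earlier results of these data known. Of 18 further glycolysis genes, 1 was higher and 2 lower in Ly6C-high than in Ly6C-low microglia, and each brain sort had 3 lower than monocytes. The shares between the brain sorts (5.56% higher and 11.1% lower) were near those of all genes (4.49% and 11%), and so was the 16.7% lower in Ly6C-high microglia than monocytes (14.6% of all genes), while 16.7% stood against 7.71% in the Ly6C-low sort. Gpd2, the mitochondrial glycerol phosphate dehydrogenase that passes cytosolic electrons to respiration, read 8.93, 8.92 and 9.72 in the Ly6C-high arrays, 6.82, 6.31 and 6.47 in the Ly6C-low arrays and 9.66, 9.89 and 9.29 in monocytes. The Ly6C-low arrays were far below both other groups, which overlapped: 6.31-fold below Ly6C-high microglia (2.66, SE 0.26, limma adjusted p = 2.79e-04) and 8.47-fold below monocytes (-3.08, SE 0.26, adjusted p = 1.11e-04). Adpgk, an ADP-dependent glucokinase, was lower than in monocytes in Ly6C-high (-1.66) and Ly6C-low microglia (-1.22). Pfkfb4, a relative of Pfkfb3, was lower in Ly6C-high microglia than in Ly6C-low microglia (-0.82) and monocytes (-1.05). The other calls were Gpd1, the cytosolic partner of Gpd2, between the brain sorts (-0.52, lost in 15 of 21 alternatives), the muscle form Pgam2 in Ly6C-high microglia against monocytes (-1.05) and Pgm2, a phosphopentomutase, in Ly6C-low microglia against monocytes (-1.06).

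Of 9 further pentose phosphate genes, 1 was lower in Ly6C-high than in Ly6C-low microglia, and 3 in Ly6C-high and 2 in Ly6C-low microglia were lower than in monocytes. The 11.1% lower between the brain sorts was near the 11% of all genes, and the 33.3% and 22.2% lower than monocytes stood against 14.6% and 7.71%. For genes at or above the median gene these shares were 19.5%, 25.9% and 12.6%. The genes called lower in the list are given next. They were Prps2, which makes the activated ribose of nucleotide synthesis (-2.12 between the brain sorts, SE 0.43, and -1.62 against monocytes, SE 0.43), Rpe (-1.15, SE 0.25) and Pgls (-1.11, SE 0.27) in Ly6C-high microglia, and Gsr, glutathione reductase (-1.55, SE 0.29), and Pgls (-1.04, SE 0.27) in Ly6C-low microglia. None of the 9 was called higher in the 3 comparisons in limma, with 1, 0 and 0 higher at an unadjusted p under 0.05.

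Of 12 further pyruvate entry genes, 1 was higher and 2 lower in Ly6C-high than in Ly6C-low microglia, and 2 were higher and 4 lower than in monocytes. The 8.33% higher and 16.7% lower between the brain sorts were near the 6.71% and 19.5% of genes at or above the median gene, and against monocytes the 16.7% and 33.3% stood against 8.22% and 25.9% of such genes. Pdhb, the partner of Pdha1, was lower in Ly6C-high microglia than in Ly6C-low microglia (-0.64, SE 0.18) and monocytes (-0.94, SE 0.18), and Pdpr, a regulatory subunit of the phosphatase that reactivates the complex, by -0.74 (SE 0.20) and -1.25 (SE 0.20). Their calls between the brain sorts were lost in 15 and 14 of 21 alternatives. Pcx, pyruvate carboxylase, which refills the cycle, was higher in Ly6C-high microglia than in Ly6C-low microglia (0.39, SE 0.11, limma adjusted p = 0.0456) and monocytes (0.63, SE 0.11), and the first of these calls was lost in 12 of 20 alternatives, with adjusted p up to 0.450. Against monocytes Pdk4 was also higher in the Ly6C-high sort (0.73, SE 0.15), and Pdk3 (-1.47, SE 0.34) and Dld (-0.86, SE 0.24), the subunit shared by the pyruvate and oxoglutarate complexes, were lower. Ly6C-low microglia and monocytes differed in 0 of the 12 in limma, with 1 higher and 4 lower at an unadjusted p under 0.05.

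Of 15 further TCA genes, 4 were lower and 0 higher in Ly6C-high than in Ly6C-low microglia, with 5 lower and 0 higher at an unadjusted p under 0.05 in limma, and 6 were lower than in monocytes (Aco1, Idh3g, Suclg2, Sdha, Me2 and Acly). The 26.7% and 40% lower stood against 19.5% and 25.9% of genes at or above the median gene. The Ly6C-low sort exceeded monocytes in 1, Acly (0.58, SE 0.15), and was lower in 0, with 1 lower at an unadjusted p under 0.05 in limma. Acly, which splits exported citrate for lipid synthesis, read 7.21, 7.67 and 7.42 in the Ly6C-high arrays, 8.61, 9.05 and 8.78 in the Ly6C-low arrays and 8.28, 8.24 and 8.18 in monocytes. Its Ly6C-high arrays lay below all others (-1.39 against Ly6C-low microglia, SE 0.15, limma adjusted p = 5.44e-04). Suclg2, the GTP-forming succinyl-CoA ligase subunit, was 6.57 ± 0.84 in Ly6C-high and 8.31 ± 0.28 in Ly6C-low microglia (-1.74, SE 0.36, limma adjusted p = 0.0122). Between the brain sorts Idh3g (-1.13, SE 0.31) and Aco1 (-0.78, SE 0.15) were the other genes called, and the call of Idh3g was lost in 15 of 21 alternatives. Me2, a mitochondrial malic enzyme, was lower in Ly6C-high microglia than monocytes (-1.94, SE 0.51, limma adjusted p = 0.0288).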

How the data were processed

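RNA of 9 sorted samples was labelled with whole-transcript kits and hybridised to Affymetrix arrays, per the labels' protocols. The authors deposited log2 intensities, and the submitters' processing notes name RMA and oligo without versions; for settings and build, the sources used here give nothing. Deposited values lay between 2.54 and 13.81 and array medians between 5.83 and 5.96.

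Of 34760 probe sets, 21640 had 1 symbol in the platform annotation, 1321 several and 11799 none. Gene IDs of 21553 were found in RefSeq. The brightest single-symbol probe set represented each of 19937 genes, of which 954 had several. Values were used unscaled. limma 3.58.1 in R 4.3.3 (lmFit, eBayes) fitted 3 group means to all 9 arrays, and p-values (two-sided) were adjusted over all genes by Benjamini-Hochberg, with a threshold of 0.05; the code was tested on simulated data. Isoenzyme balances were compared by exact permutation in Python 3.11.15 with scipy 1.17.1.

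The members and lists were chosen with earlier results of these data known. All enzymes are named; values of each array are given where a call reached 1 on the log2 scale and for Pkm, Cs and Ldha; of other lists up to 4 called genes with the largest change in a comparison are named, with Slc2a1. Slc2a8, Pdk4, Sdha, Ankrd37 and Vhl were named after their values were seen. Alternatives were other fits, scalings, filters, probe sets and arrays left out.

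Title numbers are shared by replicates of the groups, but the labels do not say that they mark a shared animal or day, and the deviations of same-numbered arrays correlated at 0.30, 0.15 and -0.03 between the brain sorts. The 2 pairs of brain arrays that share a description number, whose meaning is not given either, correlated at 0.30 and 0.21. These were the highest values among all pairs of arrays from different groups, with 0.15 next, and the pair at 0.30 shares both numbers. The arrays were treated as unpaired. With the description number as a block, 2 of the 8 calls between the brain sorts were left.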

Additional observations from a re-analysis of the deposited data

How the results depend on the processing

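No enzyme called in a comparison changed direction under any alternative. The calls held under each alternative for 2 of 8 enzymes between the brain sorts (Pfkfb3 and Idh2), 6 of 16 for Ly6C-high microglia against monocytes and 13 of 17 for Ly6C-low microglia against monocytes. The second probe set of Ldhb was not used alone in any alternative. The enzymes higher in Ly6C-high than in Ly6C-low microglia were 0 as reported, where 4.49% of all genes were higher. They numbered 2 after quantile normalization (5.94% of all genes), 4 after cyclic loess (6.49%) and 1 with a filter on dim genes (7.73% of genes kept). The 8 lower (11% of all genes) numbered 2 with a replicate block by description number, where 1.35% of all genes were lower. That fit held 6 brain arrays, of which only 2 pairs share a number. Without single replicates the 8 numbered 6 to 10, with 6.83% to 13.5% of all genes lower. Of those higher in Ly6C-high microglia than monocytes, 1 as reported, there were 1 to 2 without single replicates and 2 without both Ly6C-high array 2 and Ly6C-low array 3. Of all genes 3.73% to 11.6% and 8.27% were higher in these fits, against 6.88% as reported. The 15 lower (14.6% of all genes) numbered 9 with only the 6 arrays of the contrast (10.3%), 7 after quantile normalization (8.67%) and 8 after cyclic loess (9.82%). Without single replicates they numbered 7 to 20, with 8.73% to 19% of all genes lower. The 11 lower in Ly6C-low microglia than monocytes (7.71% of all genes) numbered 19 with only the 6 arrays of the contrast (12.6%) and 18 with array weights by group (13.6%). Without single replicates they numbered 7 to 15, with 5.04% to 10% of all genes lower. The cause of these shifts was not tested, beyond the fewer arrays where some were left out. A replicate block on the title numbers, which the labels do not tie to a shared animal, gave 8 lower between the brain sorts, 16 lower in Ly6C-high and 10 lower in Ly6C-low microglia than monocytes, and the numbers higher were 0, 1 and 6 in these comparisons. Of all genes 10.8%, 15.1% and 7.62% were lower with that block, and 4.09%, 6.46% and 6.4% higher. The isoenzyme balances gave 319 alternatives within the spread of the replicates, 9 that moved beyond it and 2 that reversed: against monocytes in Ly6C-high microglia, Hk3 minus Hk1 went from 0.60 to -0.05 and Aldoc minus Aldoa from 0.61 to -0.26 after cyclic loess. Genes near background, such as Eno2, Aldoc and Pfkm, have compressed differences in these values. The fit shares 1 spread per gene over the groups, while the median SD over all genes was 0.27 in Ly6C-high microglia against 0.14 and 0.11.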

Other observations

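A list of genes of the response to low oxygen was also read. Of its 20 measured genes, 4 were higher and 2 lower in Ly6C-high than in Ly6C-low microglia, 3 higher and 5 lower in Ly6C-high microglia than monocytes, and 1 higher and 4 lower in Ly6C-low microglia than monocytes. As shares these were 20% and 10% against 4.49% and 11% of all genes, 15% and 25% against 6.88% and 14.6%, and 5% and 20% against 6.8% and 7.71%. For genes at or above the median gene the shares were 6.71% and 19.5%, 8.22% and 25.9%, and 10.5% and 12.6%. The median log2 difference was -0.12, -0.31 and -0.08 in these comparisons, against 0.05, 0.09 and 0.05 over all genes.

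Epas1, the oxygen-sensing factor known from endothelium, read 11.58, 11.78 and 12.09 in Ly6C-high microglia, 10.12, 8.96 and 7.43 in Ly6C-low microglia and 7.23, 7.06 and 7.26 in monocytes. Its 3 Ly6C-low arrays had the order of their endothelium means, 7.41, 6.89 and 6.25. Means of pericyte and smooth muscle, choroid plexus, astrocyte and oligodendrocyte genes fell in the same order there, and those of the other marker lists did not. The part of these cell types in Epas1 was not tested. Epas1 was 7.89-fold higher in Ly6C-high than in Ly6C-low microglia (2.98, SE 0.55, limma adjusted p = 0.0073). Ndrg1 (2.13, SE 0.36), Higd1a (1.62, SE 0.39) and Ankrd37 (0.84, SE 0.21) were also higher there, and P4ha1 (-1.75, SE 0.35), a collagen prolyl hydroxylase, and Vhl (-1.28, SE 0.30), the protein that marks the oxygen-sensing factors for breakdown, were lower. Between the brain sorts the calls of Higd1a, Ankrd37 and Vhl were lost in 6, 7 and 4 of 21 alternatives. For Higd1a these included the mean of its probe sets. Vegfa, a growth factor for vessels, was lower than in monocytes in Ly6C-high (-1.77, SE 0.23) and Ly6C-low microglia (-1.88, SE 0.23). P4ha1 was the 1 gene higher in Ly6C-low microglia than monocytes (1.44, SE 0.35), and Higd1a (-1.76, SE 0.39), Ndrg1 (-1.39, SE 0.36) and Egln3 (-0.84, SE 0.12) were lower there beside Vegfa.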
